A study of Mus musculus with 12 samples.

Results

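The histone genes described here are the 70 rows, among 55291 genes, whose symbols follow the naming of the replication-dependent histone families: H1f, H2ac, H2bc, H3c or H4c with a number, or the older Hist1h to Hist4h forms. They comprise 10 linker histone (H1), 19 H2A, 17 H2B, 12 H3 and 12 H4 genes. By name, 56 belong to the Hist1 cluster on chromosome 13, 10 to the Hist2 cluster on chromosome 3 and 4 to no cluster. The histone genes H2aw, H2bu2 and H4f16 have symbols outside this naming and enter no count, sum or share of the 70. Of the 56, Hist1h2al and H2ac14 are annotated as pseudogenes. Hist1h2al lies apart from the others, at 51202727 to 51203065 (GRCm38), and adds nothing to any sum because it was at 0 in every embryo. The 4 genes of no cluster are not replication-dependent genes in the usual sense: H1f0 and H1f10 are linker variants that are also made outside S phase, and H1f7 and H1f8 are known from germ cells. For this reason the 66 cluster genes are given separately wherever H1f0 decides a sum. All 12 samples were untreated whole embryos of wild-type C57BL/6J mice at embryonic day 7.0, 5 female and 7 male, from 7 litters with at most 2 embryos of a sex from each. Each embryo gave 1 library, prepared with a SMARTer kit for ultra low RNA input and Nextera XT and sequenced as read pairs, and the comparison the design offers is female against male.

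Replication-dependent histone genes supply the H2A, H2B, H3 and H4 that package newly copied DNA, together with the linker H1 that binds between nucleosomes. They have no introns as a rule, sit side by side in clusters, and are transcribed in S phase at the histone locus body, where NPAT drives them. Their messenger RNAs normally end in a conserved stem-loop bound by SLBP in place of a poly(A) tail. By contrast, replication-independent variants such as H2A.Z, H3.3 and H1.0 are polyadenylated like most messages. The library kit primes on poly(A), so the values below measure polyadenylated histone transcripts, and a low value need not mean little histone message. How much stem-loop-ended message each gene made was not tested.

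The stem-loop that defines the family is shown for 1 abundant gene of each type, with the loop and both arms of the stem in capitals. These 26-base stretches were read from GENCODE M21 transcripts of the GRCm38 build, 5′ to 3′, and all 5 genes are on chromosome 13.
H1f4: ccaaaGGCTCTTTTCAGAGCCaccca
H2ac8: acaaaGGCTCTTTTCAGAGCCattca
H2bc11: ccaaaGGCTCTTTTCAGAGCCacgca
H3c4: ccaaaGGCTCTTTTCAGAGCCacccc
H4c9: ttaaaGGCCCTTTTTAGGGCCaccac
The H1, H2A, H2B and H3 genes shown share 1 form of the 16 capital bases, and H4c9 has another. The stem-loop was found after the stop codon of 34 of the 66 cluster genes, 22 to 59 bases from it. The form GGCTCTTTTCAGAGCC was in 23 of the 34 and in no H4 gene. The 10 H4 genes with a stem-loop had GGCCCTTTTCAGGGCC in 6, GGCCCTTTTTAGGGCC in 2 and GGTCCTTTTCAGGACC in 2. Of the 32 cluster genes without a match, 15 have an annotated transcript that ends within 2 bases of the stop codon, so for these the search had nothing to read. The search used 1 pattern of 16 bases in 1 transcript per gene, so other forms or other transcripts would be missed. A gene without a match need not lack a stem-loop.

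Levels were set beside the annotation past this stem-loop. In 16 cluster genes the annotated transcript runs on for at least 100 bases after the stem-loop, and these had a median of the mean level of 162.7 normalized counts (the read count of a gene after scaling embryos to a common depth). In the 18 genes whose transcript stops sooner the median was 23.5 normalized counts. Genes of the first kind held 52.8% of the counts of all cluster genes and those of the second kind 8.37%. The 32 genes with no stem-loop found held 38.8%, at a median of 16.95 normalized counts, and among them is H1f5, a high gene (mean 2424) whose annotated transcript ends at the stop codon. Per kb of coding sequence the medians were 327.6 and 66.6, while per kb of whole transcript they were 56.3 and 51.0, so the contrast depends on which length is used. This is a description over genes that share sequence, and an annotation is itself made from sequenced transcripts.

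The libraries held an estimated 83.2 to 114.4 fragments in units of 1000000, and 1 fragment was worth 0.83 to 1.131 normalized counts. Markers of epiblast, primitive streak, visceral endoderm and extraembryonic ectoderm were all above the filter in these whole embryos. Giant cell and maternal markers were present too: 5 of 7 trophoblast giant cell markers, 10 of 10 maternal decidua markers and 6 of 9 adult blood markers passed the filter, and Prl3b1 and Ctsq, which mark later placental cells, were at 0 in every embryo. Fewer cells of a type and less RNA per cell cannot be told apart in such samples.

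The 70 genes together took 417.7 of every 1000000 normalized counts, from 388.7 to 459.4 across embryos. H1f0 alone, the linker variant H1.0, supplied 68.9% of this. The 66 cluster genes took 129 of every 1000000 on average, 110.9 in the lowest embryo and 155.8 in the highest. The 9 genes listed as replication-independent variants outside the name rule, H2ax (H2A.X) among them, took 5885 of every 1000000. H2az1 (H2A.Z) was at 199318 normalized counts averaged over embryos and H3f3b (H3.3) at 182306, against 12273 for all 66 cluster genes summed. H2aw, H2bu2 and H4f16, in neither set, averaged 1862, 549.8 and 121.9 normalized counts.

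Of the 70 genes, 49 had at least 10 normalized counts in at least 5 embryos and were tested, 17 had a mean of at least 100, and 10 were at 0 in every embryo. The 49 comprised 8 H1, 10 H2A, 12 H2B, 10 H3 and 9 H4 genes. A total of 3 fragments, 2.49 to 3.39 normalized counts depending on the library, is the limit that a count of 0 allows, for counting error only. Among the 10 at 0 were H1f7, H1f8 and H2ac1, which are known from germ cells, and also H2ac18, H2ac19, Hist1h2al, Hist1h2ao, Hist1h2ap, Hist1h2bq and Hist1h2br. In 6 of the 10, under 12% of the 31-base stretches of the transcript are unique to the gene, which was so for 9 of the 60 genes above 0. Reads from such genes can be assigned to a copy, so their 0 is uncertain. Over all 70 genes the median share of unique stretches was 41.3%.

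By summed level H1 genes came first in the clusters, with a mean of 4275 normalized counts beside 3086 for H2A. The highest single cluster gene was H2ac8, with a mean of 2523. H1f5 (H1.5; chromosome 13, 21779883 to 21780625, minus strand, GRCm38) was at 2889, 2739, 2290, 2442 and 2238 normalized counts in female replicates 1 to 5, and at 2092 to 2791 with a median of 2281 in the 7 males. The sexes overlapped, and the coefficient of variation over the 12 embryos was 10.7%, the lowest among the cluster genes with a mean of at least 100. Per kb of transcript its mean level was 3263, close to that of H2ac8 (3584) and far above H1f4 (513.8) and H1f2 (328.5). Per kb of coding sequence H1f5 was at 3624, H2ac8 at 6469, H1f4 at 1509 and H1f2 at 805.7, so these gaps depend on the length used.
H1f4 (H1.4) was at 1184, 1123, 886.7, 683 and 791 in females and at 706.7 to 1249 with a median of 1016 in males. H1f2 (H1.2) ranged from 369.4 to 796 over the 12 embryos, H1f3 (H1.3) had a mean of 268.7 and H1f1 (H1.1) of 69.8. The somatic linker genes of the cluster thus spanned a wide range of levels, and H1f6, the testis form, averaged 8.17.
H1f0, outside the clusters, was the steadiest gene of all 70 that passed the filter. It was at 29011, 28413, 26516, 28304 and 26940 in females and at 25594 to 28556 with a median of 27121 in males, with a coefficient of variation of 4.45%. The other replication-independent linker, H1f10, had a mean of 94.8.

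Among H2A genes, H2ac8 (chromosome 13, 23570517 to 23571220, minus strand) held most of the counts. It was at 4142 and 3619 in female replicates 1 and 2, and at 2270, 2145 and 2042 in the other 3 females. Males ranged from 1888 to 2693 with a median of 2252. Both high embryos were female, from litters 3 and 4, and the remaining 3 females lay within the male range. These 2 libraries held 97.3 and 97.1 of these units, near the middle of the 12. The summed H2A level was 3336 ± 1046 (SD, n = 5) in females and 2907 ± 302.9 (SD, n = 7) in males, and 2585 ± 102 (SD, n = 3) in females without replicates 1 and 2.
H2ac11 averaged 203.8, H2ac20 of the Hist2 cluster 88.7 and H2ac4 65.2. Of the 19 H2A genes, 9 encode the same 130-residue protein in the annotated translations. These 9, H2ac8 included, held 95.1% of the H2A counts within the name rule, which leaves out H2aw (mean 1862).

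H2B counts were spread over more genes. H2bc4 was at 1303, 1266, 1231, 911.6 and 1150 in females and at 951.2 to 1320 with a median of 1021 in males, and varied by 13.6%. The annotated transcript of H2bc4 used here runs 742 bases past the stop codon and held no match to the stem-loop pattern. Other transcripts of the gene were not searched. H2bc21, the most abundant gene of the Hist2 cluster (chromosome 3, 96221119 to 96223738, plus strand), was at 148.4, 197.9, 440.7, 541.8 and 351.2 in females and at 160.1 to 388.8 with a median of 298.8 in males. The females with the most H2ac8, replicates 1 and 2, were those with the least H2bc21. H2bc11, H2bc14 and H2bc12 averaged 228.2, 223.3 and 119.4. H2bc4, H2bc6 and H2bc8 encode 1 protein and made up 52.9% of the H2B counts within the name rule. H2bc21 differs from it at 5 residues and made up 13.6%. These shares leave out H2bu2 (mean 549.8).

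Most H3 counts came from a few genes for 1 protein. The 7 genes for the H3.2 form (H3c2, H3c3, H3c4, H3c6, H3c7, H3c13 and H3c15) held 91.2% of the H3 counts, and the 4 genes for H3.1 (H3c1, H3c8, H3c10 and H3c11), which differs at 1 residue, held 8.0%. The sums differed through H3c4, H3c6, H3c7 and H3c3, while single genes overlapped: H3c2 and H3c13 averaged 22.1 and 24.9, H3c15 0.967, and the 4 H3.1 genes 6.93 to 38.6. The ratio of the former sum to the latter was above 1 in every embryo, from 5.74 to 17.7 with a median of 11.5. H3c4 (chromosome 13, 23575763 to 23577011, plus strand) was at 366, 410.9, 486.8, 224.1 and 323.2 in females and at 315.6 to 1188 with a median of 429.2 in males. Male replicate 7 had the 1188 and male replicate 5 had 717.9, and the other 5 males lay near the females. H3c6 followed, with 552.7 in male replicate 7 and 347.5 in male replicate 5 against a median of 179.6 in males, and with 258.1, 328.5, 175.6, 136.9 and 107.7 in females. H3c7 and H3c3 averaged 93.7 and 82.6. H3c6 and H3c7 share sequence (75.2% of the 31-base stretches of H3c6 are also in H3c7 and 49.2% of those of H3c7 in H3c6), so their split is uncertain, whereas 72.4% of those of H3c4 are unique.

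All 12 H4 genes encode 1 protein of 103 residues. H4c9 (chromosome 13, 22040636 to 22041362, minus strand) led with 678.1, 713.9, 622.9, 545.4 and 425.4 in females and 670.2 to 871.2 with a median of 754.9 in males. H4c4 and H4c3 averaged 409.8 and 227.9, and H4c2 46.0. In the Hist2 cluster, H4c14 averaged 40.4, H3c13 24.9, H2bc18 20.3 and H3c14 8.37. Every stretch of the H3c14 transcript is shared with the overlapping gene model Gm20634, so its counts cannot be assigned to it alone.

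**Figure D1:**
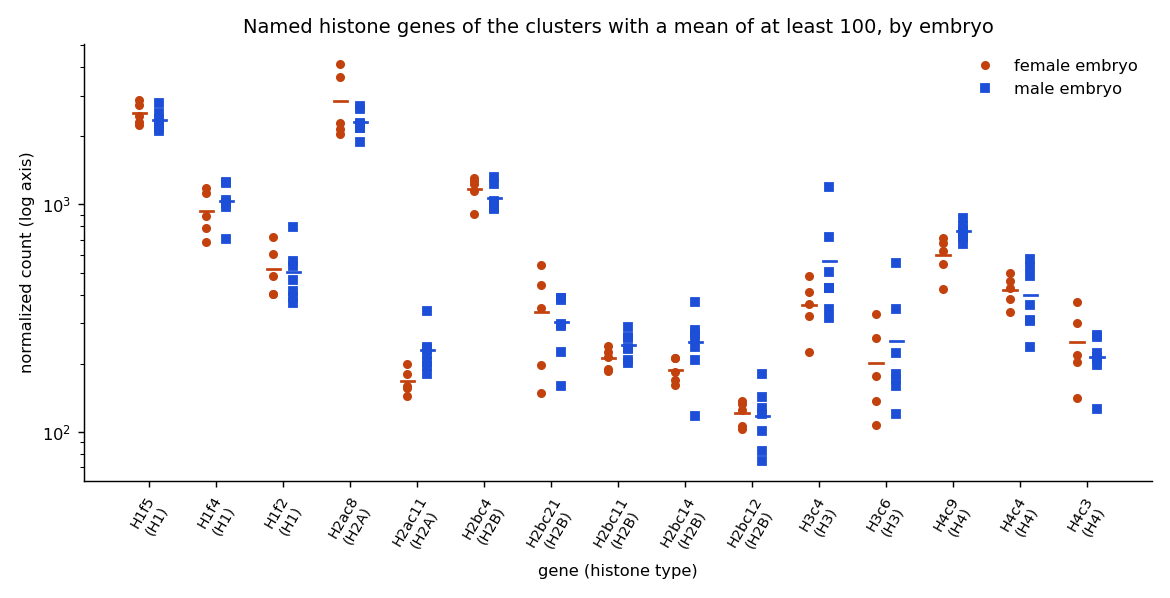
Normalized count (log axis) of the 15 named cluster genes with a mean of at least 100, by histone type. Circles are the 5 female and squares the 7 male embryos, and short lines are the means of each sex. The 2 high female circles of H2ac8 (4142 and 3619) and the high male square of H3c4 (1188) stand apart from the rest.

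Single embryos set the spread of the summed levels. The 66 cluster genes summed to 14918, 13777, 11529, 10887 and 10622 in female replicates 1 to 5 and to 10758 to 14384 with a median of 12255 in males. Female replicates 1 and 2 and male replicate 7 were highest. Female replicate 1 had the highest H1 and H2A sums of the 12, and male replicate 7 the highest H2B, H3 and H4 sums. In male replicate 7 the H3 genes summed to 2271, against 806.8 to 1379 in the other males. The male H3 mean was 1137 ± 537.9 (SD, n = 7) with that embryo and 948.4 ± 217.5 (SD, n = 6) without it, beside 861.7 ± 99.98 (SD, n = 5) in females. Male replicate 7 also had the lowest epiblast and primitive streak markers of the 12 embryos, with mean log2 levels 0.74 and 0.89 below the average of the embryos. Its S phase genes were 0.03 above that average on the same scale. The part of these markers in the H3 level was not tested.
Litter mates lay far apart in some litters. In litter 9 the female was the lowest embryo of all, at 10622, and the male was at 14384. Litter 3 ran from 11077 to 14918 over 3 embryos and litter 6 from 10758 to 12497 over 3.
Coefficients of variation over the 12 embryos can be read beside those that counting alone would give. They were 53.3% and 4.55% for H3c4 and 27.0% and 1.99% for H2ac8. For the low genes H4c8 (15.9% and 14.2%) and H2ac10 (23.6% and 21.9%) they were nearly equal. The 17 members with a mean of at least 100 had a median coefficient of variation of 25.4%, beside 16.3% over the 12537 tested genes at that level, whose median level was higher (2178 against 409.8).

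**Figure D2:**
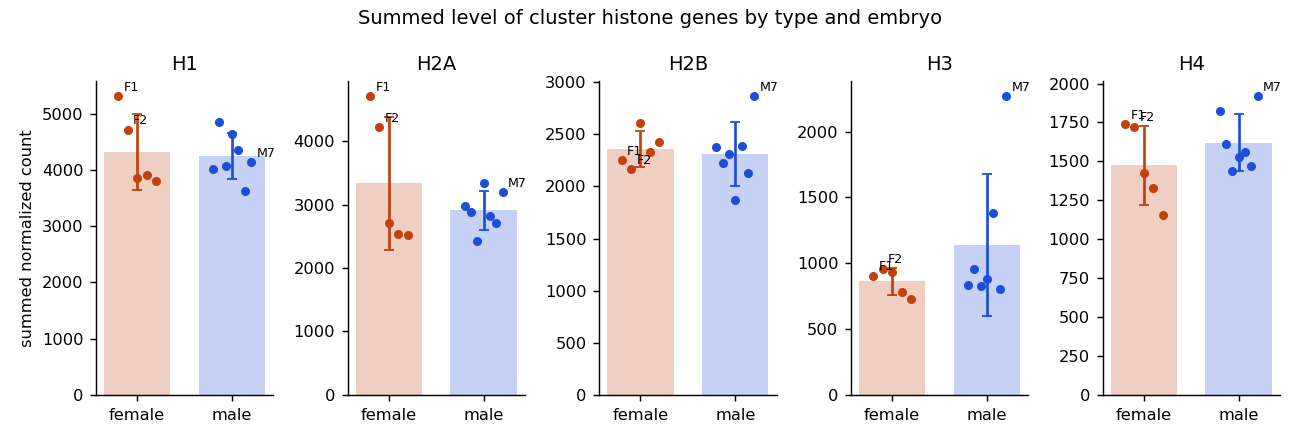
Summed normalized count of the cluster genes of each histone type in every embryo, with 1 panel per type. Bars are means and error bars SDs of the 5 female and 7 male embryos, points are embryos, and F1, F2 and M7 mark female replicates 1 and 2 and male replicate 7. H2A was highest in F1 and F2 (4711 and 4215) and H3 in M7 (2271).

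Divergent pairs came next, because an H2A and an H2B gene often start back to back and share the bases between them. By RefSeq starts, 12 pairs of members start within 500 bases of each other on opposite strands, 11 of them on chromosome 13, and every pair joins an H2A with an H2B gene. The bases between the starts are shown for 1 very unequal and 1 nearly equal pair, on the plus strand of GRCm38.p6 in the direction of the H2B gene, from RefSeq. Capitals mark the letters CCAAT on either strand, the octamer ATTTGCAT, and the TATA box letters TATAAA.
H2ac8 to H2bc8, chr13:23571221-23571399: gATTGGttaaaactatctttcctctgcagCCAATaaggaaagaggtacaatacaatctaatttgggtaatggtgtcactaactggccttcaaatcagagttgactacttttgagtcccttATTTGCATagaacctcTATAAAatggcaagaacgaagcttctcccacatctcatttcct
H2ac11 to H2bc11, chr13:22042950-22043197: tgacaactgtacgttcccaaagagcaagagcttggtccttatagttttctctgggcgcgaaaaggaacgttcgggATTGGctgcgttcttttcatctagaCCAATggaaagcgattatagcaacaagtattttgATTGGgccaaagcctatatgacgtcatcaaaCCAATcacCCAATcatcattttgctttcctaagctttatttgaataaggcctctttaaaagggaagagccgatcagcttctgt
The first stretch holds 2 CCAAT matches, 1 octamer and 1 TATAAA, the latter at positions -59 and -43 from the H2bc8 start. The second holds 5 CCAAT matches and neither of the others. A match is only these letters in this window.

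H2ac8 averaged 2523 normalized counts and its partner H2bc8 40.6, a ratio of 62.2. H2bc8 was at 63.1, 18.9, 75.3, 6.47 and 18.0 in females and at 21.04 to 72.1 with a median of 39.8 in males, so the embryos with the most H2ac8 were not those with the most H2bc8. H2ac11 and H2bc11 averaged 203.8 and 228.2, a ratio of 1.12.
Partners were compared per kb of annotated transcript in the 6 pairs where both genes passed the filter, and in 3 of the 6 they differed more than 3-fold. H2ac8 was 54.6-fold above H2bc8, H2bc4 24.5-fold above H2ac6, and H2bc12 11.4-fold above H2ac12. Per kb of coding sequence these folds were 60.3, 11.8 and 13.6. H2bc11 was 1.17-fold above H2ac11 and Hist1h2bp 1.22-fold above Hist1h2an.
For H2ac20 and H2bc21 the direction depended on the length used. H2ac20 was 1.41-fold higher per kb of transcript, where the long annotated transcript of H2bc21 (2620 bases) counts in full, and H2bc21 was 3.67-fold higher per kb of coding sequence and 3.58-fold higher in normalized counts.
In the other 6 pairs at least 1 gene was below the filter and no fold is given. H2bc14 averaged 223.3 normalized counts beside 3.85 for the pseudogene H2ac14, and H2ac15 25.5 beside 3.77 for H2bc15. Across embryos H2ac14 ran from 1.00 to 10.2 and H2bc15 from 0 to 13.03, so both low means rest on few fragments.
No correlation between partners over the 12 embryos passed adjustment. In the 6 pairs where both genes passed the filter, Pearson correlations of log2 levels were positive in 4. The lowest p was that of H2ac12 and H2bc12, with r = -0.60 (p = 0.0407 by permutation, adjusted p = 0.244 over 6 pairs) and a Spearman correlation of -0.50 (p = 0.0989 by permutation, adjusted p = 0.593), and r was -0.30 without the 2 embryos farthest from the median of H2ac12. H2ac8 and H2bc8 had r = 0.14 (p = 0.649 by permutation) and a Spearman correlation of 0.22 (p = 0.484 by permutation).

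**Figure D3:**
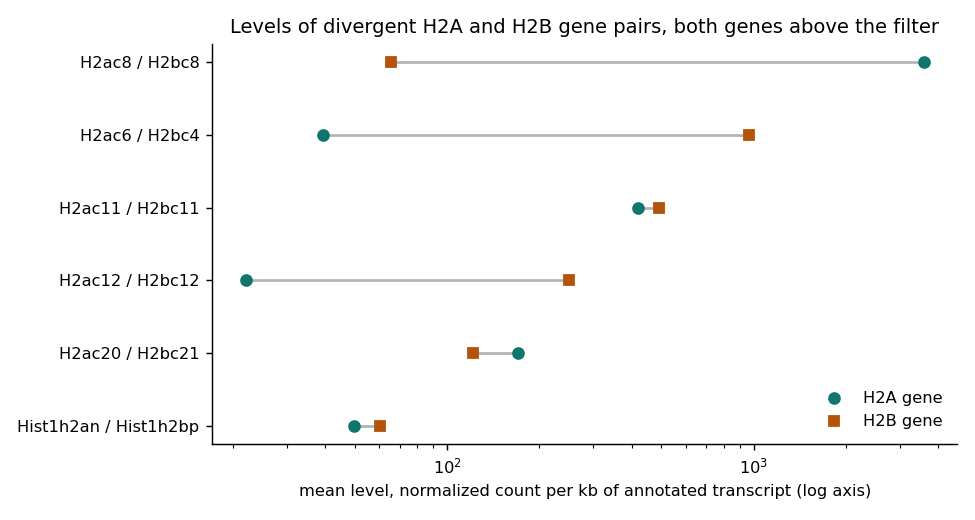
Mean level per kb of annotated transcript (log axis) of the H2A gene (circle) and the H2B gene (square) in the 6 divergent pairs with both genes above the filter. The line joins partners: H2ac8 was 54.6-fold above H2bc8, whereas H2ac11 and H2bc11 lay 1.17-fold apart. Sequence shared with other histone genes leaves these gaps uncertain.

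Promoter letters differed by histone type. RefSeq windows from 250 bases before to 50 bases after the start were found for 62 of the 70 genes (63 windows), and each motif was searched on both strands. CCAAT was in 82.5% of the members' windows and in 37.4% of all 32851 windows, and its share was 100% for H2A, H2B and H3 genes and 27.3% for H4 genes. TATAAA was in 54.0% of the members' windows and 13.6% of all. The octamer ATTTGCAT, which OCT1 binds, was in 43.8% of H2B and 37.5% of H2A windows, in no H1, H3 or H4 window, and in 1.74% of all. Divergent H2A and H2B windows overlap, so a match between their starts is counted for both. AAACACA, known from H1 promoters, was in 5 of the 6 windows of H1 genes in the Hist1 cluster and in 7.18% of all.

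Covariation of the cluster genes was slight. Over the 1081 pairs of the 47 cluster genes that passed the filter, the median Spearman correlation over the 12 embryos was 0.04, with 55.4% of pairs above 0. Over all pairs of the 16455 genes tested the median was 0.00 and 49.6% were above 0. Within types the medians were 0.32 for the 6 H1 genes, 0.18 for 10 H2A, 0.09 for 9 H4, 0.08 for 12 H2B and -0.02 for 10 H3 genes, and between types 0.04. By position the median was 0.06 within Hist1, 0.01 within the 6 genes of Hist2 and -0.02 between the clusters.
Correlations of sparse genes carry much counting error. Among the 16 cluster genes with a mean of at least 100 the median of 120 pairs was 0.14, with 68.3% above 0. Single pairs ran from -0.62 to 0.76. Values of 1 pair share their embryos and libraries with all others, and members with near-identical sequence also share reads, so these are descriptions with no test.

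**Figure D4:**
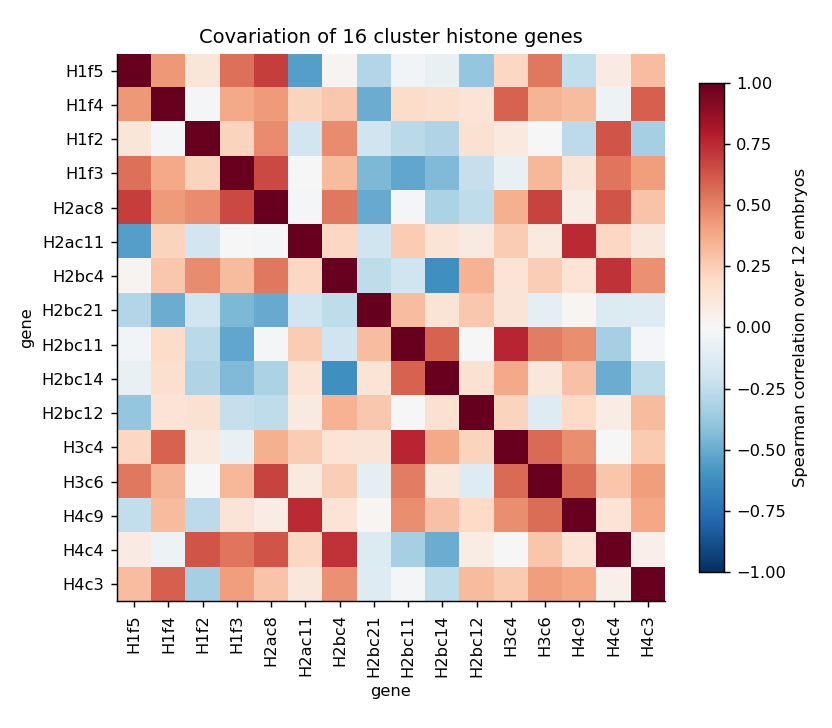
Spearman correlation over the 12 embryos between the 16 cluster genes with a mean of at least 100, ordered by histone type and falling level. Red is positive and blue negative. Of the pairs, 68.3% are positive, and values run from -0.62 to 0.76.

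No histone gene passed the threshold for a sex difference. Sex was fitted with limma over all 16455 genes that passed the filter, with Benjamini-Hochberg adjustment, and 7 genes of the whole table passed an adjusted p of 0.05 (0.0425%). Among the 49 histone genes tested 0 passed. At an unadjusted p under 0.05 there was 1 of 49 (2.04%), beside 10.8% of all genes tested. This 1 was H4c9, at 597.1 ± 115.2 (SD, n = 5) in females and 761.1 ± 64.4 (SD, n = 7) in males. The fitted log2 difference of female minus male was -0.37, with an SE of 0.15 and an adjusted p of 0.389 by limma. The sexes overlapped, since 2 females lay above the lowest male. The sexes overlapped in every one of the 49 genes, and 0.772% of all genes tested had sexes that did not overlap.
H2ac8 had a log2 fold change of 0.26 (SE 0.17, adjusted p = 0.636 by limma) and H3c4 of -0.53 (SE 0.31, adjusted p = 0.565 by limma), each with its high values in the embryos named above. For H1f0 the difference was 0.04 (SE 0.04, adjusted p = 0.794 by limma).
The median log2 fold change of the 49 was -0.16, with 18 above 0 (36.7%), beside -0.001 and 49.8% over all genes tested. By type the medians were -0.26 for H3, -0.20 for H2A, -0.18 for H4, -0.14 for H1 and -0.04 for H2B. Fold changes are differences of mean log2(normalized count + 1), so in low genes single embryos can move them away from the ratio of means. H2bc18, with means of 16.4 in females and 23.2 in males, had -1.04, and H3c3, with 82.2 and 82.8, had -0.28. The fold changes of the 49 ran from -1.65 (H3c14) to 0.56 (Hist1h4m).
Out of every 1000000 normalized counts, all 70 genes took 421.2 ± 27.1 (SD, n = 5) in females and 415.3 ± 17.6 (SD, n = 7) in males, a difference smaller than the spread within a sex. The difference of 5.89 became -3.67 without female replicate 1. The cluster genes alone took 129.1 ± 19.2 (SD, n = 5) and 128.8 ± 12.5 (SD, n = 7).
The authors' deposited table gave an adjusted p to 57 of the 70 genes, none under 0.05, where 1.14% of all its genes were. In the authors' deposited table the lowest was that of H4c9, with an adjusted p of 0.218 and a log2 fold change of -0.11 (SE 0.11). An unadjusted p under 0.05 was given to 4 members, beside 8.44% of all its genes. H4c9 was among these members, although a fold change no larger than its SE would not give such a p by itself. The deposited fold changes of the members ran from -0.11 to 0.05, beside -1.65 to 0.56 in the limma fit. Their sizes therefore cannot be compared with those of the limma fit.

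**Figure D5:**
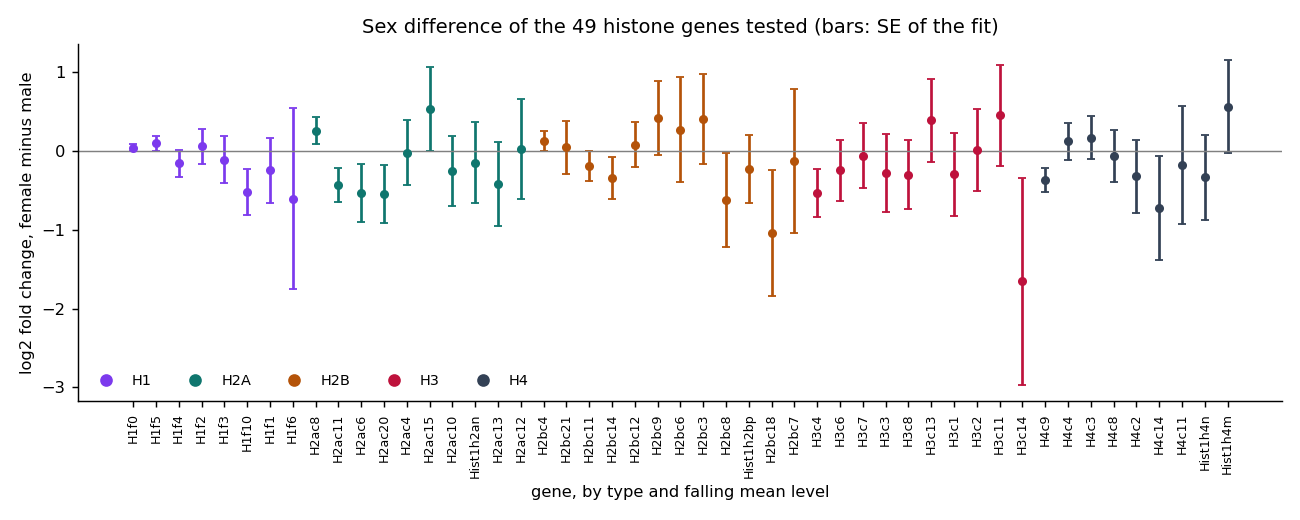
Log2 fold change of female minus male for the 49 histone genes tested, coloured by type and ordered by falling mean level within a type, with bars for the SE of the limma fit. The values run from -1.65 to 0.56, and no gene passed an adjusted p of 0.05.

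Gene lists that bear on histone supply held no call either, with 0.0425% of all genes tested called as background. None of the 11 replication-independent variants passed, with H2az1 at 200363 ± 11867 (SD, n = 5) in females and 198572 ± 9127 (SD, n = 7) in males and H3f3b at 181462 ± 5737 and 182909 ± 10511, and 3 of 11 were higher in females.
None of 21 genes for histone pre-mRNA processing and transcription passed. Slbp, which binds the stem-loop, averaged 38214 ± 1686 (SD, n = 5) in females and 37411 ± 4032 (SD, n = 7) in males. Snrpb, a core protein of the U7 particle, averaged 78842 ± 4149 in females and 75305 ± 3217 in males.
None of 18 histone chaperones passed, where Npm1 averaged 271410 ± 12940 in females and 289253 ± 21049 in males and Rbbp7 105329 ± 4477 and 106763 ± 7364 (SDs over the same embryos).
Of the 26 S phase genes and the 20 of G2 and mitosis none passed, with median log2 fold changes of 0.02 and -0.04. Rrm2, a subunit of ribonucleotide reductase, averaged 95668 ± 4397 in females and 96478 ± 9496 in males. Mcm2, of the replicative helicase, averaged 75650 ± 2411 and 72334 ± 2579. Ccnb1 and Cdc20, of entry into and exit from mitosis, averaged 70998 ± 6764 and 71938 ± 3778 in females and 73122 ± 8344 and 69780 ± 3995 in males.
Of the 7 germ cell histone genes found, only H1f6 passed the filter, and H1f7, H1f8, H2ac1 and Hils1 were at 0 in all embryos.
The summed levels of marker lists also varied, with none of their genes past the threshold. The 12 visceral endoderm markers summed to 416226 to 581626 in females and 218788 to 495190 in males, and all 12 were higher in females (median log2 fold change 0.57). The 7 trophoblast giant cell markers summed to 7165 to 28378 in females and 9810 to 69731 in males, and 0 of the 5 tested were higher in females. The 10 maternal decidua markers summed to 9714 to 29971 and 13521 to 50334, and the 9 adult blood markers to 446.6 to 7870 and 1266 to 7271. The 8 epiblast markers summed to 452444 to 517809 and 351889 to 544189, the 8 primitive streak markers to 114226 to 128988 and 77960 to 124032, and the 8 extraembryonic ectoderm markers to 34072 to 39173 and 21752 to 36094. Eomes, with a mean of 18892, is in both the primitive streak and the extraembryonic ectoderm list and is the largest term of the latter sum. Elf5, Esrrb and Sox21 of that list averaged only 56.1, 45.0 and 29.5. The part of these cell types in the histone levels was not tested.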

How the data were processed

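Per the submitters' processing notes, the tools were DESeq2 1.34.0, Salmon 1.5.2, STAR 2.7.7a and cutadapt 4.1, with the mm10 build. Their settings and the annotation release are not given in the sources used here. The values per embryo are log2-scale, variance-stabilized and deposited by the authors, with a floor of 10.4141. The authors also deposited a mean signal on the scale of normalized counts, log2 fold changes, p-values and adjusted p-values. The log2 values were inverted in closed form to normalized counts, and the mean of the 12 equalled the deposited one within a relative tolerance of 1e-06 for 25183 of 25451 genes (98.95%), all 70 histone genes included. Whole reads were not recovered, since 83.56% to 86.12% of low values were whole multiples within 0.1, so no count model was used.

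Sex was tested, two-sided and with no other term, in every gene that reached 10 normalized counts in 5 or more embryos. The fit used limma 3.58.1 (R 4.3.3, trended prior variance) and log2 values with a pseudocount of 1. P-values were adjusted by Benjamini-Hochberg over 16455 genes with a threshold of 0.05, and the fit was tested on simulated data. Correlations of divergent pairs were tested with 100000 permutations in Python 3.11.15 with numpy 2.4.6 and scipy 1.17.1. Shares of unique sequence used stretches of 31 bases over all GENCODE M21 transcripts. Levels per kb used the longest annotated transcript of the gene, coding or not, which may differ from the authors'. Levels per kb of coding sequence used its longest annotated coding sequence, which can come from another transcript. Symbols were matched to GENCODE for 70 and to RefSeq for 69 of the 70 genes. Limits from a count of 0 allow for counting error alone, because PCR copies are not separate molecules. Named genes were the up to 4 of highest level per kb in each type, the tested genes of the Hist2 cluster and genes past the threshold, and the up to 2 of highest mean in other lists; other members were named after their values were seen. Members and lists were chosen with earlier results of these data known. Alternatives were other pseudocounts, filters and scalings, the deposited scale, blocks for replicate number and litter, leaving out each embryo and, chosen after seeing the data, the cluster genes alone.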

Additional observations from a re-analysis of the deposited data

Results flagged for a closer look

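Dixon's test was run in 98 groups of values, each the 5 females or the 7 males for 1 of the 49 tested histone genes. In 4 of the groups (4.08%) a single value stood apart from the rest of its sex. Chance flags about 1 in 20 groups, a rate that does not hold where values are tied at 0, as for H3c14. H2bc3 was at 110 normalized counts in male replicate 3, against 12.1 to 49.1 in the other males. H2ac11 was at 339 in male replicate 1, against 181 to 235. H1f10 was at 59.8 in male replicate 3, against 106 to 135. H3c14 was at 18.7 in female replicate 1 and at 0 in the other females, and all of its sequence is shared with Gm20634.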

How the results depend on the processing

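The count of 0 histone genes past the sex threshold held in all 21 alternatives, with a lowest adjusted p between 0.325 and 0.722. Of all genes, 7 were called, 4 with the replicate block and 4 with litter as a fixed block, and 5 to 9 when single embryos were left out. The median log2 fold change of the histone genes stayed below 0, from -0.21 to -0.09 without single embryos and from -0.19 to -0.02 otherwise, and was -0.04 with the replicate block. Replicate numbers did not pair the embryos: same-numbered females and males came from different litters, and their deviations correlated between -0.07 and 0.01. Of the 25 named genes, none past the threshold, 18 had a value in all 21 alternatives, and 12 of these 18 kept the sign of the fold change throughout. The other 7 fell below the filter in at least 1 alternative. That of H3c3 went from -0.28 to 0.23 without female replicate 2. The sex difference in the share of all histone genes ran from -3.67 to 13 of every 1000000 normalized counts without single embryos and was 0.29 for cluster genes. The median correlation was 0.02 to 0.06 without single embryos and 0.14 with a minimum of 100 normalized counts, where fewer genes were included. Genes near 10 counts rest on few fragments, and shared sequence limits which copy a count belongs to.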
